A study of Mus musculus with 32 samples.

Results

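The comparison is of crypt progenitors that lack Cpt1a, taken from mice fed a high-fat diet and from mice fed its control diet. It holds 8 of the 32 libraries of the study, 4 for each diet, chosen by the group named on the columns of the count table (HF.KO.prog against HFC.KO.prog). The study sequenced polyA RNA of sorted intestinal stem cells and their progenitors from C57BL6 mice of 2 genotypes on these 2 diets. The deficient mice carried floxed Cpt1a (Cpt1afl/fl) with Villin-CreER, a Cre active in the intestinal epithelium, and with Lgr5-GFP-IRES-CreER, a reporter of crypt base stem cells that also encodes a Cre. The wild-type mice carried both drivers without the floxed alleles. Each group has 2 female and 2 male samples by its labels. Progenitors were sorted as cells low in the Lgr5-eGFP reporter and positive for EpCAM, low in or without CD24, and without CD31, Ter119, CD45 or the dead-cell dye 7AAD. Age, the time on the diet and the timing of Cre induction are not stated in the labels used here, and nothing in them says that the samples of a group came from separate animals, so p-values measure the spread between these samples.

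CPT1A sits in the outer mitochondrial membrane and joins long-chain fatty acids to carnitine, the step by which they enter mitochondria to be burned. The peroxisome proliferator-activated receptors (PPARs) are nuclear receptors that bind fatty acids and switch on genes of fatty acid uptake, transport and oxidation. The intestinal epithelium meets dietary fat directly, and its crypt cells use PPAR-driven oxidation when fat is plentiful.

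The 8 libraries held 4959763 to 7337425 estimated counts each. Levels are written as CPM, counts scaled to 1000000 per library after a correction for library composition. Cpt1a was 18 to 29.2 CPM in deficient progenitors on the control diet and 20.9 to 26.7 CPM on the high-fat diet, against 159 to 327 CPM in the 8 wild-type progenitor libraries. Cpt1a was lower in deficient than in wild-type progenitors by a log2 difference of -3.41 ± 0.17 SE on the high-fat diet and -3.07 ± 0.17 on the control diet (edgeR, adjusted p = 3.77e-09 and 1.71e-08). In these genotype contrasts 0.706% and 0.257% of all genes were called. These are counts over the whole gene, which do not separate an intact transcript from one without the floxed exons. Within the deficient cells Cpt1a did not pass the test between diets (log2 fold change 0.07 ± 0.17 SE, adjusted p = 0.933). Its paralogs were near absent, with Cpt1b at no more than 0.98 CPM and Cpt1c at no more than 0.37 CPM in these libraries. Epcam stood at 2015 to 2430 CPM, Ptprc (CD45) was at 0 in all 8 libraries, and Pecam1 (CD31) reached at most 0.609 CPM. Lgr5 was 11.4 to 81.2 CPM on the control diet and 25.2 to 63.6 CPM on the high-fat diet.

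Of 23 genes listed under mitochondrial fatty acid oxidation, 7 rose on the high-fat diet in the deficient progenitors. Among them were Acadvl, Acadl, Hadha and Hadhb. The peroxisomal thiolase gene Acaa1b and the omega-hydroxylase gene Cyp4a10 rose more, by 5.64-fold and 8.36-fold, while the ketone-using enzyme gene Oxct1 and the desaturase gene Scd2 fell. Of 12460 genes tested, 39 passed an adjusted p of 0.05 in edgeR's quasi-likelihood test, which is 0.313% of them. Of these, 30 were higher on the high-fat diet (0.241%) and 9 lower (0.0722%), and 19 changed by at least 2-fold. The 4 libraries of one diet lay wholly above the 4 of the other for all 39, as they did for 5.86% of all genes tested (3.18% higher and 2.68% lower). At an unadjusted p under 0.05 stood 1217 genes. The count itself depended on single libraries: it was 84 without control-diet library c and 16 without control-diet library d. It was 22 without control-diet library a, and 20, 19 and 23 without high-fat library a, b and c in turn. A core of 15 genes was called with any 1 of the 8 libraries left out, namely Acaa1b, Oxct1, Retsat, St3gal6, Me1, Hadhb, Acadvl, Adprhl1, Ech1, Hsdl2, Ncald, Slc22a3, Slc25a20, Zfp667 and Acadl.

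**Figure D1:**
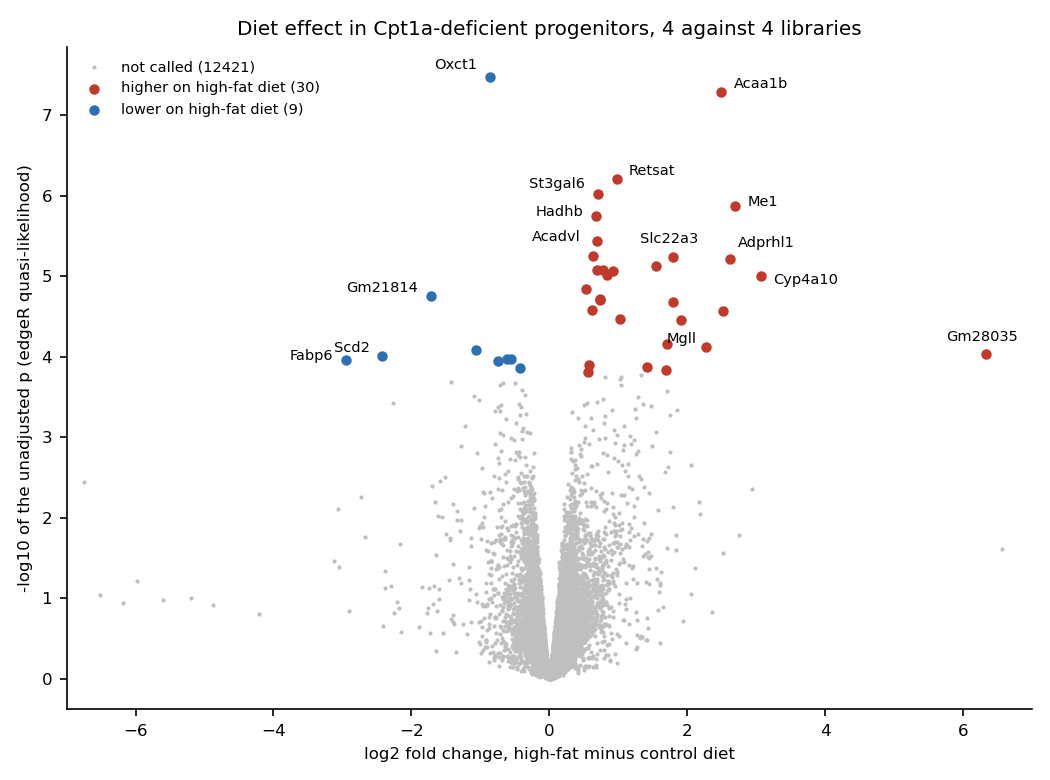
Each point is 1 of the genes tested, with the log2 fold change between diets in Cpt1a-deficient progenitors on the x axis and -log10 of the unadjusted p on the y axis; 1 gene lies outside the x axis and is not drawn. The 30 genes called higher (red) and the 9 called lower (blue) stand above the rest, with Oxct1 and Acaa1b highest.

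The letters a to d name libraries by column order. By Xist and Ddx3y, a and b match female and c and d male samples in all 4 progenitor groups. Several called genes differed between these sets on the control diet, where libraries c and d were low, and less on the high-fat diet. In fits of 1 set alone, chosen after the data were seen, 18 of the 39 genes were called in a and b and 13 in c and d. Their direction in each set was fixed by the groups not overlapping. The rise was larger in c and d for 26 of 29 higher genes with a value in both sets. Of the 9 lower genes, only 1 had the larger fall in c and d. Neither difference was tested. These genes are not independent observations, as all rest on the same few libraries. No share over all genes tested was set beside these counts. Control-diet library c also stood apart in its markers: it had the most Lgr5, the highest sum of crypt base stem cell markers (9954 CPM against 4527 to 6946 CPM in the other control-diet libraries) and the lowest sum of enterocyte markers (4630 CPM against 7307 to 9554 CPM).

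Of 23 measured genes in a list for mitochondrial beta-oxidation, 7 were called higher and none lower. The list had a median log2 fold change of 0.26, against -0.00 over all genes tested, and 18 of its 23 members were above 0 (49.6% of all genes). Acadvl, which encodes the very-long-chain acyl-CoA dehydrogenase of the first oxidation step, was 539, 498, 401 and 458 CPM in control-diet libraries a to d. On the high-fat diet it was 794, 787, 781 and 702 CPM. The lowest high-fat library was well above the highest control-diet one, and the rise was 1.62-fold (log2 fold change 0.69 ± 0.11 SE, adjusted p = 0.00662). Acadl, the long-chain dehydrogenase, went from 226, 256, 176 and 168 CPM to 399, 355, 390 and 326 CPM, a 1.78-fold rise (0.83 ± 0.14, adjusted p = 0.00779). Control-diet libraries a and b were the higher ones for Acadl, and the groups did not overlap. The log2 change of Acadl was 0.65 in libraries a and b alone and 1.07 in c and d alone.

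The later steps of the spiral moved with the first. Hadha and Hadhb encode the alpha and beta subunits of the mitochondrial trifunctional protein, which carries out the remaining steps on long chains. Hadhb was 730, 740, 663 and 636 CPM on the control diet and 1187, 1098, 1132 and 1014 CPM on the high-fat diet, so the groups were far apart relative to their own spread (1.60-fold, log2 fold change 0.68 ± 0.10, adjusted p = 0.00374). Hadha rose 1.45-fold (0.54 ± 0.09, adjusted p = 0.0106). Acaa2, the thiolase that releases acetyl-CoA, rose by 0.61 ± 0.11 on the log2 scale, with 561 to 723 CPM on the control diet and 878 to 1072 CPM on the high-fat diet. Hadha and Acaa2 were named after their values were seen. The call of Hadha was lost without control-diet library d (adjusted p = 0.0742) and that of Acaa2 in 4 of the 8 fits without 1 library (adjusted p up to 0.0814). Eci2, an isomerase for unsaturated fatty acids, rose 1.67-fold (0.74 ± 0.13), and Hsdl2, a hydroxysteroid dehydrogenase-like protein, rose 1.90-fold (0.92 ± 0.15). Eci2 lost its call in 3 of those 8 fits, at an adjusted p up to 0.0749. Acadm, Acads, Echs1 and Hadh, which act on medium or short chains, showed smaller values that did not pass. Acadm, the medium-chain dehydrogenase, had a log2 fold change of 0.06 ± 0.10 and lay between 129 and 162 CPM in all 8 libraries. Acads stood at 0.17 ± 0.10, and Echs1 and Hadh, a hydratase and a dehydrogenase for short chains, at -0.18 ± 0.10 and -0.18 ± 0.12.

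Hadha and Hadhb lie head to head on chromosome 5 of GRCm38, with RefSeq starts 273 bases apart, so both genes that rose share the sequence between them. The stretch shown is the part shared by the promoter windows of both genes that lies in no GENCODE exon of either, at chr5:30155163-30155230, read on the strand of Hadhb. Capitals mark the 13 letters closest to a PPAR response element, which differ from it at 4 of 12 scored bases and count as no match.
Hadha and Hadhb, shared upstream stretch: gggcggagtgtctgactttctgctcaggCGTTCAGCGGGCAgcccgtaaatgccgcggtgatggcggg

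The carnitine shuttle gave 1 call among 8 genes. Slc25a20, the carrier that brings acylcarnitines through the inner mitochondrial membrane after the CPT1A step, was 144, 142, 112 and 130 CPM on the control diet. It was 238, 224, 227 and 213 CPM on the high-fat diet, 1.71-fold higher (log2 fold change 0.77 ± 0.13, adjusted p = 0.00762). Crot, which makes carnitine esters in peroxisomes, was 116 to 136 CPM and then 179 to 193 CPM, but did not pass (0.52 ± 0.13, adjusted p = 0.108). Cpt2, which reverses the CPT1 reaction inside mitochondria, had 0.31 ± 0.15.

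Peroxisomes shorten very long chains without CPT1A, and 2 of 26 genes of peroxisomal oxidation and assembly rose. Acaa1b, a peroxisomal thiolase, was 6.59, 6.64, 2.97 and 3.45 CPM in the control-diet libraries. In the high-fat libraries it was 29.5, 29.4, 27.3 and 25.6 CPM. The high-fat libraries were nearly level while the control ones fell into a higher and a lower set, and the difference was 5.64-fold (log2 fold change 2.49 ± 0.28, adjusted p = 0.000322). It was 2.15 on the log2 scale in libraries a and b and 3.04 in c and d. Its near-identical neighbour Acaa1a had 0.12 ± 0.10, and reads shared by the pair could be split unequally by the authors' counting. Ech1, an isomerase found in peroxisomes and mitochondria, was 456, 484, 359 and 406 CPM and then 675, 710, 676 and 582 CPM, a 1.55-fold rise (0.63 ± 0.10, adjusted p = 0.00762). The list median was 0.13, with 21 of 26 above 0.

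Oxct1 had the smallest p of all genes tested. Oxct1, the transferase that activates ketone bodies for use as fuel, was 96.5, 95.9, 96.8 and 91.7 CPM on the control diet and 52.8, 50.7, 47.5 and 58.6 CPM on the high-fat diet. Both groups were tight, and the high-fat libraries were 1.82-fold lower (a log2 change of -0.86 ± 0.09, adjusted p = 0.000322). Without 1 library the change stayed between -0.92 and -0.82. Bdh1 and Acat1, a dehydrogenase and a thiolase that act on ketone bodies and their precursors, had log2 fold changes of 0.03 ± 0.08 and -0.07 ± 0.09 and did not pass.

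**Figure D2:**
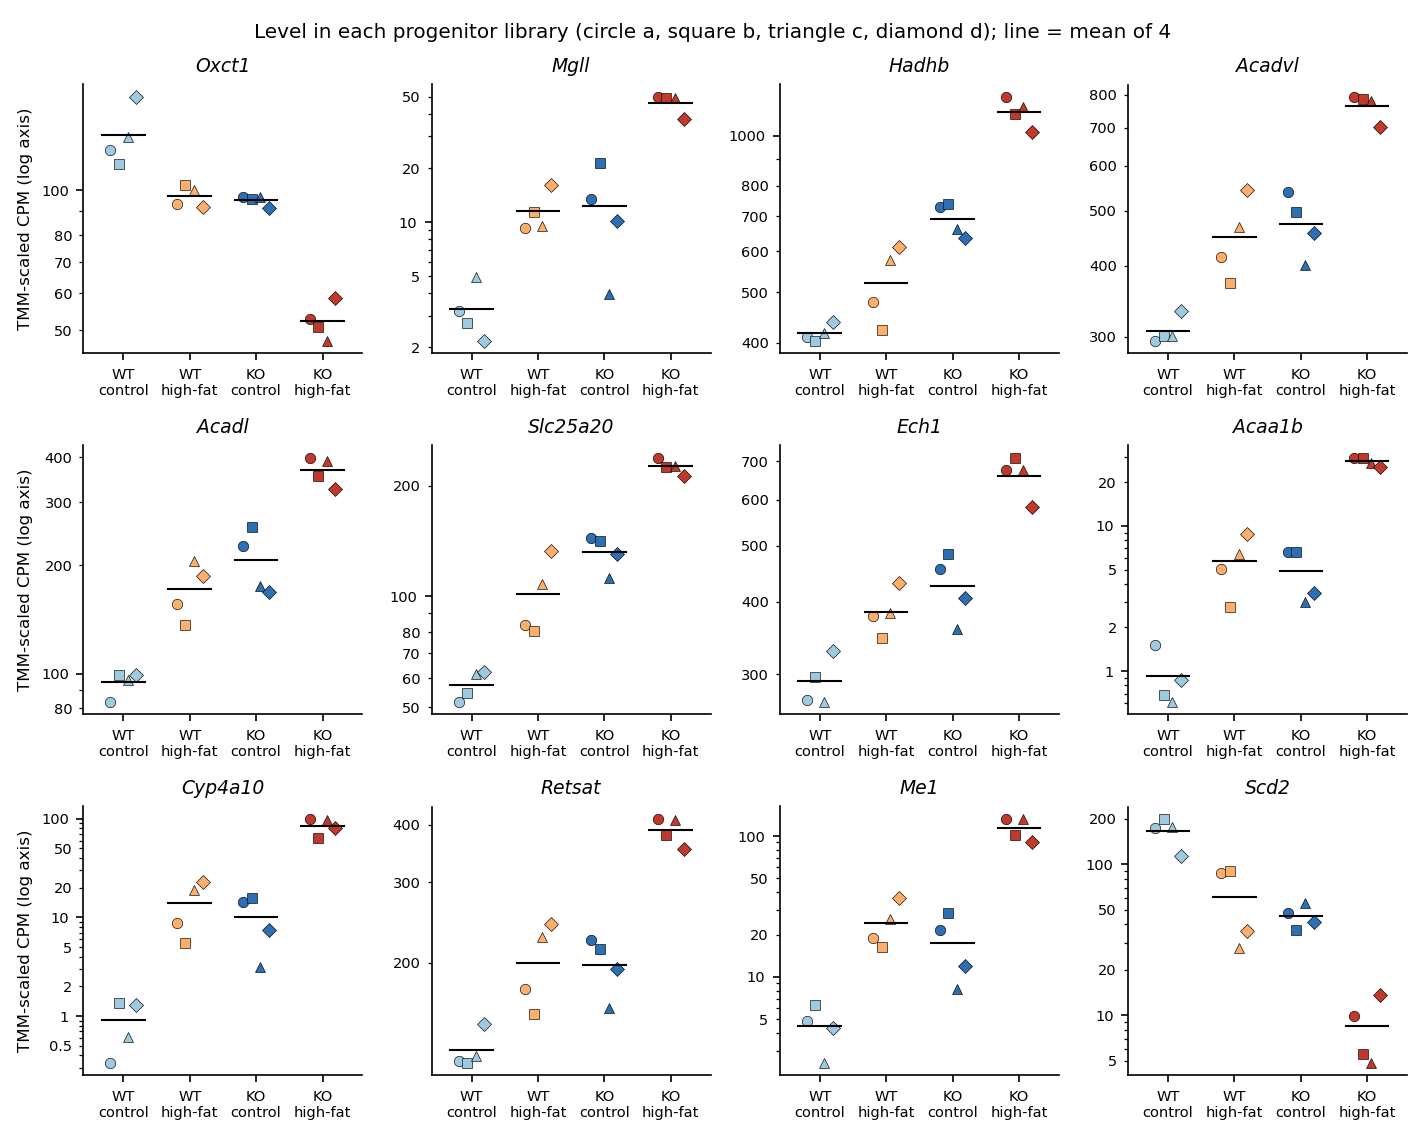
Each panel gives 1 gene in the 16 progenitor libraries, in CPM on a log axis, by genotype (WT, wild type; KO, Cpt1a-deficient) and diet, with the mean of 4 as a line. In the deficient cells the 4 high-fat libraries stand above the 4 control ones for 10 of the 12 genes and below them for Oxct1 and Scd2.

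Genes of omega-oxidation and retinoid handling gave 3 calls among 18, all higher. Cyp4a10, a fatty acid omega-hydroxylase, was 14.3, 15.6, 3.14 and 7.39 CPM on the control diet and 100, 63.4, 97.0 and 79.9 CPM on the high-fat diet. It rose 8.36-fold (log2 fold change 3.06 ± 0.45, adjusted p = 0.00779), although its close paralogs can share reads. The log2 change was 2.45 in libraries a and b and 4.07 in c and d, and the call was lost without control-diet library d (adjusted p = 0.0568). Retsat, a retinol saturase, was 225, 214, 159 and 194 CPM and then 413, 379, 410 and 355 CPM, with no overlap and a 1.97-fold rise (0.98 ± 0.13, adjusted p = 0.0026). Dhrs4, a retinal reductase, rose 1.47-fold (0.55 ± 0.12, adjusted p = 0.0495) and was lost in 7 of the 8 fits without 1 library.

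Lipid synthesis genes split. Me1, the malic enzyme that makes NADPH for fatty acid synthesis and is also a PPAR target, was 21.5, 28.4, 8.26 and 12.0 CPM on the control diet and 131, 102, 133 and 90.5 CPM on the high-fat diet. Its 6.49-fold rise (log2 fold change 2.70 ± 0.33, adjusted p = 0.00338) was 2.23 on the log2 scale in libraries a and b and 3.47 in c and d. Acacb, a carboxylase that makes malonyl-CoA, the inhibitor of CPT1, lay at 2.30 to 5.14 CPM and then 10.5 to 15.99 CPM, a 3.47-fold rise (1.80 ± 0.32, adjusted p = 0.0124). Scd2, a desaturase that makes monounsaturated fatty acids, was 47.8, 36.5, 55.8 and 41.2 CPM and then 9.97, 5.54, 4.86 and 13.6 CPM, 5.37-fold lower (-2.43 ± 0.44, adjusted p = 0.0406). Acacb lost its call in 2 of the 8 fits without 1 library (adjusted p up to 0.0749) and Scd2 in 6 (adjusted p up to 0.174). Fasn and Acaca, the core of fatty acid synthesis, had 0.13 ± 0.17 and 0.04 ± 0.20 and did not pass. The 17 genes of this list had a median of -0.06, or -0.15 without control-diet library c.

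Of 17 genes of fatty acid uptake, binding and activation, none was called higher and 1 was called lower, while 11 lay above 0. Fabp6, the ileal bile acid binding protein, was 6.87, 5.14, 1.98 and 6.41 CPM on the control diet and 0.893, 0.652, 0.187 and 0.811 CPM on the high-fat diet. The counts are low, and the 7.71-fold fall (-2.95 ± 0.59, adjusted p = 0.0418) was called in only 1 of the 8 fits without 1 library. The intestinal fatty acid binding protein Fabp2 lay at 230 to 430 CPM and 559 to 867 CPM and fell just short (1.03 ± 0.21, adjusted p = 0.0537). Fabp1, the liver form, was 1198, 1053, 207 and 530 CPM and then 3232, 2555, 4071 and 2540 CPM. The groups did not overlap, but the control libraries differed among themselves and the test was not passed (2.05 ± 0.53, adjusted p = 0.189). Cd36, a fatty acid translocase, had 1.49 ± 0.39 (adjusted p = 0.143). Mgll, which cleaves monoglycerides, was the only call among 12 genes of lipid droplets and lipolysis. It was 13.5, 21.4, 3.96 and 10.2 CPM and then 50.002, 48.9, 48.97 and 37.3 CPM, a 3.78-fold rise (1.92 ± 0.33, adjusted p = 0.0177) that was lost in 5 of the 8 fits without 1 library. Gm26588, an RNA antisense to Mgll, rose as well, and without a stated strand setting the reads of the pair cannot be told apart.

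A list of 42 PPAR target genes held 15 of the 30 higher genes and none of the lower ones. Over all genes tested, 0.241% were called higher and 0.0722% lower. The list was written with earlier results of these data known and shares members with the lists above. Its median log2 fold change was 0.53 and 39 of 42 were above 0. Besides those already described, members with values short of the threshold were Acot1, a thioesterase of the cytosol (1.18 ± 0.28, adjusted p = 0.127), and Creb3l3, a transcription factor of lipid handling (1.29 ± 0.36, adjusted p = 0.222). Further classical targets did not pass the test. Pdk4, an inhibitor of pyruvate oxidation, had 0.78 ± 0.47, Angptl4, a lipase inhibitor, 0.29 ± 0.43, and Plin2, which coats lipid droplets, 0.19 ± 0.10. The receptors did not pass either, with Ppara at -0.05 ± 0.22, Pparg at -0.07 ± 0.19 and Ppard, at no more than 2.80 CPM, at -0.54 ± 0.29.

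**Figure D3:**
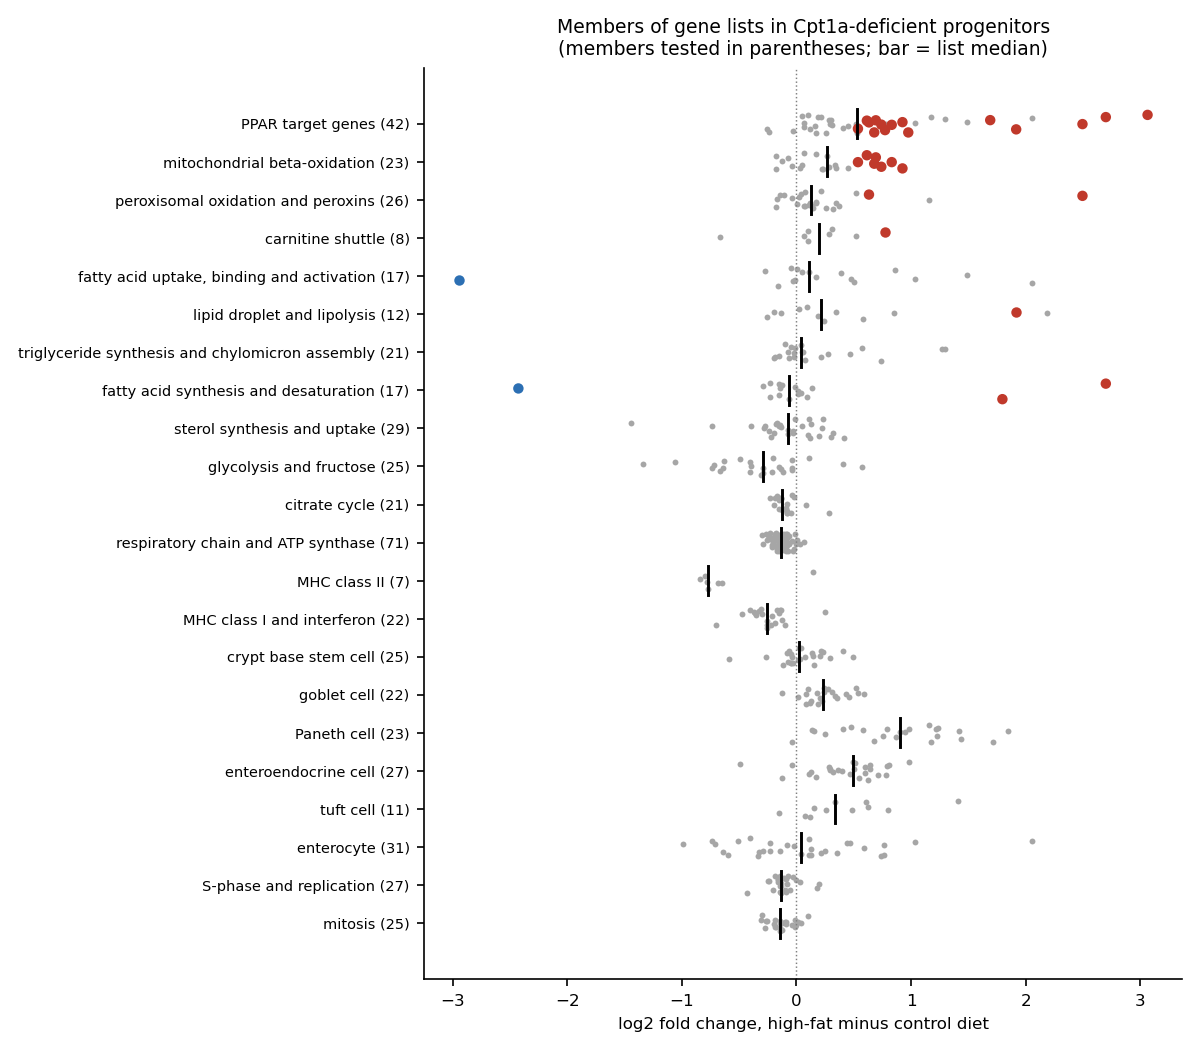
Points are the members of 22 gene lists, with the log2 fold change between diets in Cpt1a-deficient progenitors on the x axis; red and blue points passed the test and black bars are list medians. The red points gather in the lists of lipid use, and the Paneth cell list has the median farthest above 0 (0.90) with no member called.

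Outside lipid use, St3gal6, a sialyltransferase, was 75.0, 85.4, 73.8 and 60.0 CPM on the control diet and 116, 122, 131 and 111 CPM on the high-fat diet, 1.63-fold higher (log2 fold change 0.70 ± 0.10, adjusted p = 0.0030). Slc22a3, an organic cation transporter, was 4.63, 8.46, 4.95 and 4.60 CPM and then 20.8, 20.7, 18.9 and 18.3 CPM, a 3.48-fold rise (1.80 ± 0.29, adjusted p = 0.00762). Ncald, a neuronal-type calcium sensor, lay at 35.0 to 45.6 CPM and 57.3 to 70.4 CPM and rose 1.61-fold. The groups were apart for each of these genes. Adprhl1, an ADP-ribosylhydrolase-like protein, was 0.991 to 1.99 CPM and 5.88 to 14.2 CPM, and Zfp667, a zinc finger protein, 2.80 to 5.64 CPM and 9.74 to 15.98 CPM, both called at an adjusted p of 0.00762. Tm4sf4, a tetraspan membrane protein, was 190, 415, 201 and 183 CPM and then 617, 640, 796 and 590 CPM (1.42 ± 0.27, adjusted p = 0.0461), and Vwa8, a mitochondrial ATPase-like protein, rose 1.67-fold. Tm4sf4 kept its call in 1 of the 8 fits without 1 library and Vwa8 in 6.

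The other lower genes fell less than Scd2 and Fabp6. Slc44a4, a choline-like transporter, lay at 112 to 132 CPM and then 73.7 to 104 CPM (log2 fold change -0.55 ± 0.11). Selenop, the plasma selenium carrier, had -0.62 ± 0.12, and Aldh1l1, a folate enzyme, -0.75 ± 0.15. Ap2s1, a clathrin adaptor subunit, had -0.43 ± 0.09 and lay at 70.3 to 86.9 CPM and 54.1 to 63.0 CPM. Gm21814 and Rps4l, a ribosomal protein gene copy whose reads may be shared with its parent, had -1.72 ± 0.30 and -1.06 ± 0.21. Of the 8 fits without 1 library, Gm21814 kept its call in 4, Rps4l in 3, Slc44a4 and Aldh1l1 in 2, and Selenop and Ap2s1 in 1. Gm28035, named after its values were seen, had 0 counts in the 4 control libraries and 41 in the 4 high-fat ones. Against a floor of 3 counts over the control group it was 14.95-fold higher, with the spread of the 41 counts left aside. Gm28035 kept its call in 2 of the 8 fits without 1 library, and its gene model overlaps others. It averaged 0.73 CPM in wild-type progenitors on the control diet.

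Several lists without a call leaned downward. Of 25 genes of glycolysis and fructose use, 22 lay below 0, the list median was -0.30 on the log2 scale, and 12 had an unadjusted p under 0.05 on the lower side, as did 587 of all 12460 genes. Pkm, the pyruvate kinase of proliferating cells, was 1695, 1303, 835 and 1468 CPM on the control diet and 844, 705, 758 and 920 CPM on the high-fat diet. Control-diet library c overlapped the high-fat libraries and the test was not passed (-0.72 ± 0.16, adjusted p = 0.0844). Without that library 5 genes of the list were called, of 84 called in all, and the median was -0.44. Leaving out control-diet library a instead moved the median to -0.20. Pfkl, a phosphofructokinase, went the other way (0.41 ± 0.10, adjusted p = 0.0932). The 71 subunits of the respiratory chain and ATP synthase had a median of -0.13 with 4 above 0, and the 21 citrate cycle genes -0.13 with 2 above 0. Without control-diet library a these medians were -0.07 and -0.04, and without control-diet library c they were -0.22 and -0.18. MHC class II genes had a median of -0.77, and their transactivator Ciita was the 1 of 7 above 0. The median was -0.30 without control-diet library b, whose summed level of 1566 CPM stood above the 605 to 875 CPM of the other control-diet libraries. Cd74, the class II invariant chain, was 375 to 916 CPM and 210 to 430 CPM, so the groups overlapped (-0.80 ± 0.44, adjusted p = 0.569). The 22 class I and interferon genes had a median of -0.26, or -0.11 without control-diet library b.

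No marker of a secretory cell type was called. The Paneth cell list had a median log2 fold change of 0.90 and 22 of its 23 measured members above 0. Their summed level was 4220 to 13945 CPM on the control diet and 15211 to 28518 CPM on the high-fat diet, and the groups did not overlap. Defa24, a Paneth cell defensin, was 1198, 4127, 3785 and 2880 CPM and then 5942, 6415, 5190 and 9153 CPM (1.16 ± 0.41, adjusted p = 0.381). In bulk RNA, more cells of a type and more RNA per cell cannot be told apart. Goblet cell markers summed to 11660 to 24199 CPM and 15619 to 23843 CPM, with 21 of 22 genes positive and a median of 0.23, which was 0.11 without control-diet library d and 0.41 without control-diet library b. Enteroendocrine markers summed to 918 to 1971 CPM and 1255 to 1915 CPM, with 24 of 27 positive and a median of 0.49, or 0.82 without control-diet library b. Tuft cell markers had 10 of 11 positive. The sums of both lists overlapped between diets. The 31 enterocyte and 25 stem cell markers had medians of 0.04 and 0.02, and both signs depended on single libraries. Markers of white blood cells summed to at most 4.61 CPM and those of stroma, endothelium and red cells to at most 11.2 CPM. In a fit with the mean Paneth marker level of each library as a covariate, chosen after the data were seen, 17 of the 39 calls held, among them all 7 of mitochondrial beta-oxidation and 13 of the 15 PPAR targets. With the mean level of all Paneth, goblet and enteroendocrine markers as the covariate, 5 held: Acaa1b, Oxct1, Retsat, Hadhb and Acadvl. All 39 kept their direction in both fits. The 34 that missed the threshold with the secretory covariate had log2 changes of 0.68 to 1.25 times their size without it. Among them, Me1 had 2.64 (adjusted p = 0.0541) and Cyp4a10 3.07 (adjusted p = 0.11). The part of the secretory markers in the diet effect was not tested beyond these fits.

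**Figure D4:**
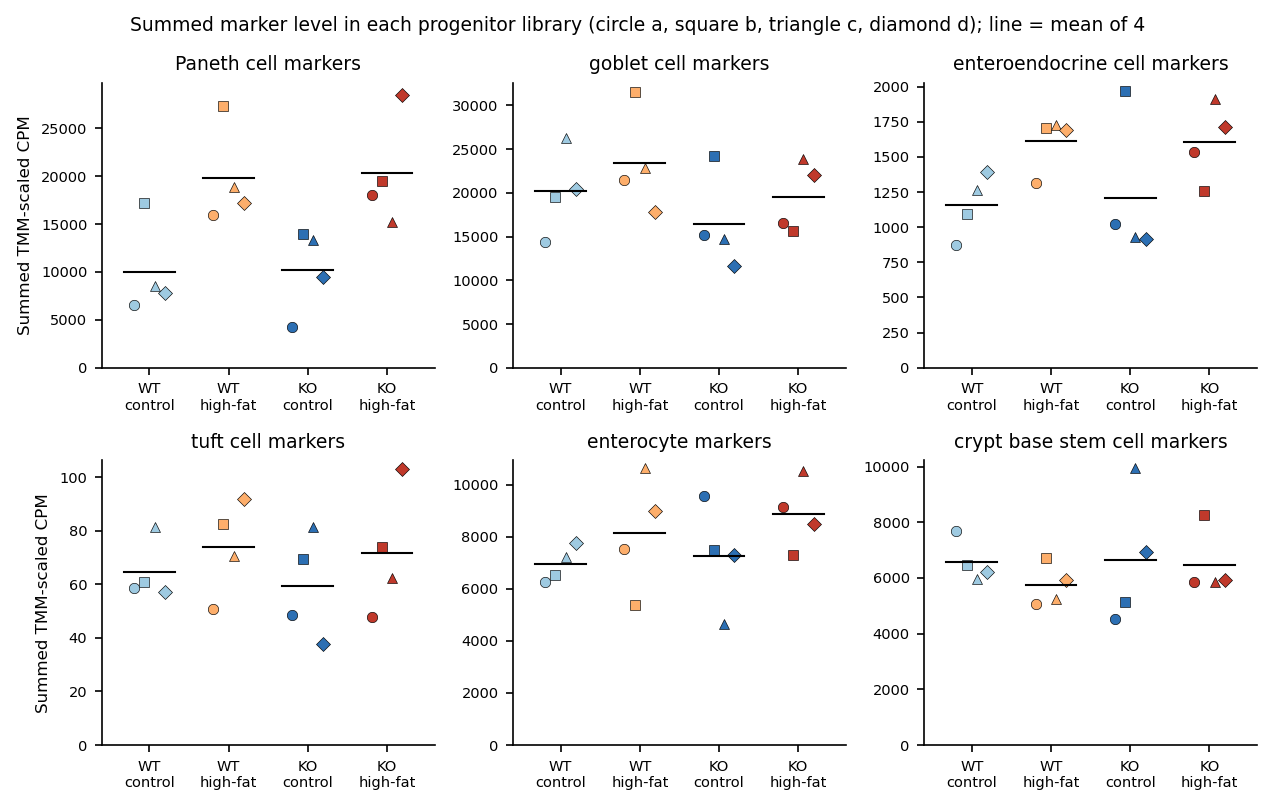
Summed CPM of 6 marker lists in each of the 16 progenitor libraries, by genotype and diet, with the mean of 4 as a line. In the deficient cells the Paneth sums on the 2 diets do not overlap, at 4220 to 13945 CPM and 15211 to 28518 CPM, while the sums of the other 5 lists overlap.

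The same diet contrast in wild-type progenitors, which shares no library with this one, called 11 of the 12460 genes (0.0883%), all higher. Of these, 8 were also called in the deficient cells, 72.7% of the wild-type calls and 20.5% of the deficient ones, among them Acaa1b, Slc25a20, Hsdl2, Acadl, Hadha, Acacb and Acaa2. Of the 39 genes, 38 had the same sign in wild type, against 57.0% of all genes, and only Ap2s1 had the other (0.07 ± 0.09). The median size of the change over the 39 was 0.98 on the log2 scale in deficient and 0.64 in wild-type cells, but the 39 were selected on the first of these. The difference between genotypes was itself tested and no gene passed in edgeR, DESeq2 or limma, with 561 genes at an unadjusted p under 0.05 in edgeR and the smallest adjusted p at 0.969. The 3 genes with the smallest p were Gm11273, Gm10108 and Tepsin, with log2 fold changes of -0.58, -0.72 and -0.44 in deficient and 0.44, 0.42 and 0.29 in wild-type cells. For Oxct1 the difference between genotypes was -0.43 ± 0.13 (adjusted p = 0.969), with -0.43 ± 0.09 in wild-type cells. Of the wild-type calls, Mettl7b, a methyltransferase-like lipid droplet protein, rose by 0.80 ± 0.14 there and had -0.02 ± 0.14 in deficient cells.

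Levels on the control diet were set beside those in wild type. In 27 of the 30 higher genes the deficient control-diet mean was above that of wild type on the same diet, against 51.9% of all genes, as a description without a test. In 17 of the 30 it was also above the wild-type mean on the high-fat diet, which is near the share of all genes (50.6%). Hadhb averaged 692 ± 50.5 CPM (SD, n = 4) in deficient cells on the control diet, against 522 ± 86.0 CPM in wild-type cells on the high-fat diet. Oxct1 averaged 95.2 ± 2.38 CPM and 96.9 ± 5.19 CPM in the same 2 groups, which overlapped.

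**Figure D5:**
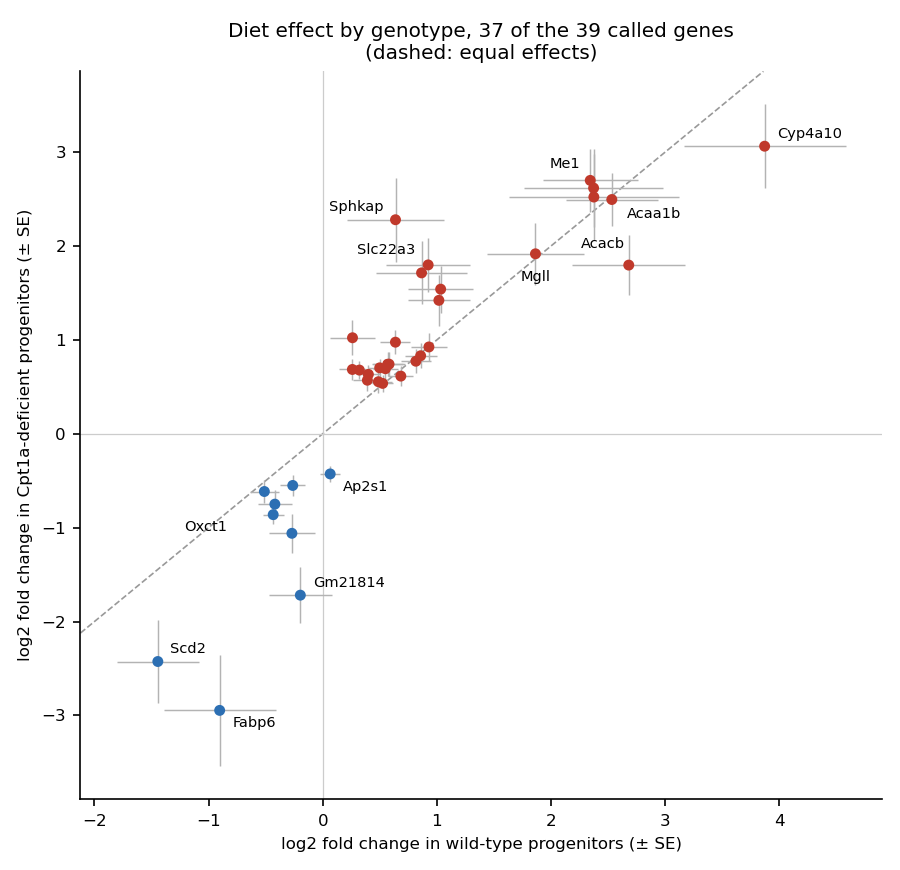
The diet effect (log2 fold change ± SE) in wild-type progenitors on the x axis and in Cpt1a-deficient progenitors on the y axis for 37 of the 39 called genes, with Gm28035, at 0 counts in one group, among those left out. Points near the dashed line, such as Acaa1b and Mgll, had like values in both genotypes, Oxct1 lies below it (-0.86 against -0.43), and Ap2s1 is the only gene with opposite signs.

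The diet effect was also set beside that in deficient stem cells of the study. In a joint fit of all 32 libraries over 13088 genes, 21 genes were called for the diet in deficient stem cells (0.16%), 12 of which were among the 39, and 39 of 39 had the same sign, against 57.7% of all genes with a value in both. No gene passed for a difference of the diet effect between deficient progenitors and stem cells in edgeR, DESeq2 or limma, with 387 at an unadjusted p under 0.05 in edgeR. The 3 with the smallest p were Gm10031, Ihh, a hedgehog ligand of the epithelium, and Ahi1, a cilium protein, with Ihh at 0.96 ± 0.24.

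Because 15 of the 30 higher genes were listed PPAR targets, the promoters of the called genes were searched for a PPAR response element, 2 copies of AGGTCA with 1 free base between them, AGGTCANAGGTCA, on both strands. The windows run from 250 bases before to 50 after each RefSeq start, on GRCm38.p6, and a match allowed 2 mismatches over the 12 fixed bases. Of the 30 higher genes 24 had a promoter in the table, and 2 of them held a match (8.33%). None of the 7 lower genes with a promoter did, and 361 of the 9290 tested genes with one did (3.89%). The share is a matter of the mismatches allowed, being 0% of the 24 at 1 and 33.3% at 3, against 0.603% and 24.5% of all tested genes. The matches are shown with the closest letters of Me1, which has 3 mismatches, and capitals mark the motif letters. The St3gal6 stretch is chr16:58524329-58524409 on the minus strand, with its match starting 122 bases before the start, and the Me1 stretch is chr9:86696083-86696163 on the minus strand, with its letters 215 bases before. The Slc25a20 match begins 6 bases after that gene's start. A match describes these letters and is not evidence of binding.
St3gal6: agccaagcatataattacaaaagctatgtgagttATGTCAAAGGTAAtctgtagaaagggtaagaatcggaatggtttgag
Slc25a20: AGGTGAAAGGTCG
Me1: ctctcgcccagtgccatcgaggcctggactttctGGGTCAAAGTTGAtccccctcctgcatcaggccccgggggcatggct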

How the data were processed

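Samples were grouped by the labels, as read from the names of the table's columns, which give the group of a library but neither its replicate number nor its sex. Per the submitters' processing notes, tools including STAR 2.5.3a, RSEM 1.3.0 and SAMtools 1.3 and the build mm10 were used, with no role, order, annotation or strand setting given in the sources used here. The authors deposited expected counts for 50686 genes as whole numbers. That these are rounded follows from 2831 values of 0 whose TPM was above 0. The deposited log2 values are the log2 of TPM plus 1. Symbols were matched for 50376 genes, and genes without one held 0.0677% of the counts and were left out of named results. Positions came from GENCODE M21 and promoters from RefSeq.

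The 16 progenitor libraries (3307711 to 7337425 counts) were fitted together as 4 groups in edgeR 4.0.16 under R 4.3.3 with TMM scaling, a filterByExpr minimum of 10 counts and robust quasi-likelihood tests, with p-values adjusted by Benjamini and Hochberg and called at 0.05, so that all groups share 1 estimate of the spread. Standard errors were obtained by dividing the size of a log2 fold change by the root of its F statistic. Stem cells entered a joint fit of 32 libraries. DESeq2 1.42.0 on the counts and limma 3.58.1 on the log2 values were alternatives, and the code was tested on simulated data. Replicate libraries of the deficient groups correlated at 0.960 to 0.976 in log2 CPM. The runs of columns were checked for pairing and treated as unpaired. Fits by labelled replicate number or sex were not possible, so the Xist level and the run of columns took their place.

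The members, gene lists, tests and most alternatives were chosen with earlier results of these data known. Genes named include up to 15 called genes of largest change in each direction. These have a mean log2 CPM of at least 3 and libraries that do not overlap, which left 8 lower genes eligible. Also named are the called members of a list, up to 4 with the smallest p, or 2 uncalled ones. The 12 called genes with the smallest p are named too, as are the 3 with the smallest p for each difference. Other list members are given as values. Some genes that the rule names are not reported here.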

Additional observations from a re-analysis of the deposited data

Results flagged for a closer look

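In 8 of 96 group values looked at, 1 library stood apart by Dixon's test for groups of 4, which sets the gap to the nearest other library against the whole range. Chance gives such a result in about 1 in 20 groups. Acadvl in high-fat library d was the lowest at 702 CPM, with the others at 781 to 794 CPM. Mgll in the same library was the lowest at 37.3 CPM (others 48.9 to 50.002 CPM), and Sphkap there was the highest at 3.45 CPM (others 1.63 to 1.93 CPM). In control-diet library b, Slc22a3 was the highest at 8.46 CPM (others 4.60 to 4.95 CPM), Tm4sf4 the highest at 415 CPM (others 183 to 201 CPM) and the sum of enteroendocrine markers the highest at 1971 CPM (others 918 to 1022 CPM). Cpt1a was lowest in high-fat library c at 20.9 CPM (others 26.0 to 26.7 CPM). The sum of crypt base stem cell markers was highest in high-fat library b at 8257 CPM (others 5863 to 5924 CPM).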

How the results depend on the processing

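The count of 39 calls moved with some choices: DESeq2 called 107 (62 higher, 45 lower, all 39 among them), no filter on low counts gave 67 (45 and 22), the secretory marker covariate 5 (4 and 1) and the Paneth marker covariate, added after the data were seen, 18 (16 and 2). Leaving out 1 library gave 16 to 84. Without control-diet library c the split was 44 higher and 40 lower. Other fits stayed within 1.5 times: limma on log2 TPM 39 (24 and 15), RLE scaling 39, the 8 libraries alone 35, all 32 libraries 43 and the Xist covariate 42. The limma calls were not all the same genes, as Hadha and Acacb, among others, lost their call there. Libraries a and b alone gave 34 and c and d alone 36, both added after the data were seen. The replicate block by run of columns gave 54, with 34 of the 39 among them. Deviations of same-run libraries of the deficient groups correlated at 0.25, -0.05, -0.09 and 0.09. Of 4 high-fat libraries, 1 correlated best with its own run's control. By Xist and Ddx3y the progenitor libraries of each run match 1 sex. What else the libraries of a run share is not in the labels used here. Over 465 gene values from fits that kept or regrouped the libraries, 321 stayed called, 144 lost the call and 0 changed sign. The diet groups do not overlap for any of the 39, so in fits without a covariate the sign was all but fixed in advance. Over 312 values without 1 library 187 stayed called. The difference between genotypes gave 0 calls in each fit except without high-fat library a, with 1 (Rpl9-ps4, a pseudogene), so its range is 0 to 1. The difference between populations gave 0 in every fit run. Cpt1a in deficient against wild-type progenitors had a log2 difference of -3.30 to -3.47 on the high-fat diet and -2.96 to -3.18 on the control diet without 1 library. Of 44 list medians 0 changed sign under RLE scaling or log2 TPM. Promoter matches in higher genes were 8.33%, and 0% at 1 mismatch and 33.3% at 3. With 4 libraries a group, a gene that was not called is not shown to be unchanged.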

Other observations

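The circadian clock genes, for which the time of day of collection is not in the labels used here, had a median log2 fold change of 0.22 between diets in the deficient progenitors, with 11 of 16 above 0 and none called, and 0.02 without high-fat library b. Immediate early and dissociation genes, known to respond to cell handling, had a median of -0.19 with 2 of 14 above 0 and none called, and -0.04 without control-diet library b. Replication and mitosis genes had medians of -0.13 and -0.14, with 3 of 27 and 3 of 25 above 0, and none was called. Leaving out high-fat library c moved the first to -0.04 and leaving out control-diet library d moved the second to -0.03. Of 19 p53 target genes none was called, 12 were above 0 and the median was 0.10, or 0.04 without control-diet library c, while Sesn1, a stress-induced member, fell just short of the threshold on the lower side (-0.49 ± 0.11, adjusted p = 0.0581).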
